A study of Mus musculus with 4 samples.

Results

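Pigment control was followed for 8 genes across dorsal skin sections of Krox20-CreERT; R26-tdTomato mice: *Asip*, *Mc1r*, *Corin*, *Kit*, *Kitl*, *Mitf*, *Sox10* and *Ednrb*. They are 8 of the 32286 features in the count tables, and they were chosen by name. The reporter labels cells in which the *Krox20* (*Egr2*) promoter drove a 4-hydroxytamoxifen-dependent Cre, induced at P2 in all animals, and skin was taken at P38. Spatial transcriptomics (Visium, in which poly(A) RNA is captured on a grid of barcoded spots) was run on 4 slices, and each slice carried 1 section from each of the same 3 mice. The study's own analysis left out a section with distorted structure, numbered 4. The sources used here do not say whether that section is slice 4 or belongs to it, so all 4 slices were used and results that change without slice 4 are given where they stand. There was no untreated or Cre-negative group, so every comparison was between places in the skin. The 4 slices are technical replicates, and all SDs and p-values measure the spread between slices, not between mice. Slices reuse grid positions, and a pair shared up to 1402 spot barcodes, which name positions and not cells.

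Hair takes its color from melanocytes that sit above the dermal papilla, the mesenchymal core of the hair bulb, and pass pigment to the keratinocytes of the growing shaft. MC1R, a melanocortin receptor on melanocytes, drives black eumelanin, and agouti protein (*Asip*), secreted by the dermal papilla, blocks it and gives yellow pheomelanin. Corin is a serine protease of the dermal papilla that limits agouti activity. KIT ligand (*Kitl*, stem cell factor) acts on the receptor tyrosine kinase KIT of melanocytes and mast cells. MITF is the transcription factor that governs melanocyte identity and pigment enzymes, SOX10 acts above it and is also required in Schwann cells, and the endothelin receptor EDNRB serves melanocyte growth and migration.

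Spots were called melanocyte-rich when their summed level of *Tyrp1*, *Dct* and *Pmel*, which encode 2 melanin enzymes and the melanosome fibril protein, was at or above the 95th percentile of the slice and at least 1 UMI (1 captured RNA molecule) of each was present. This gave 311 of 6411 spots, with 82, 83, 77 and 69 in slices 1 to 4. No member took part in the choice. Spots were then ordered by their steps on the grid from the nearest melanocyte-rich spot, which gave 1114 neighbors at 1 step, 1323 at 2 steps, 1120 at 3 steps and 2543 distant spots at 4 or more. The lowest melanocyte-rich spot stood at 1042 to 1159 CPM (UMIs scaled to a total of 1e+06 per spot or class) for the summed genes across slices, and the highest spot left out, for want of one of the 3 genes, at 1156 to 1746 CPM. A spot can hold several cells of different types or part of one, so fewer cells of a type and less RNA per cell cannot be told apart.

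The choice was checked with melanocyte genes that it did not use. *Tyr*, the rate-limiting melanin enzyme, was at 86.9 ± 18.5 CPM (SD, n = 4 slices) in melanocyte-rich spots and 12.2 ± 1.32 CPM at 1 step. *Mlana* was at 600.2 ± 57.5 and 61.0 ± 8.47 CPM. Slices held 19393026 to 26910422 UMIs, with median totals of 11662 to 14627 per spot. The median spot total was 20447 UMIs in the melanocyte-rich class, 17400 at 1 step and 9815 far away, so levels are given as CPM.

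Sequence from the promoters is shown first for 3 genes, because it sets *Mc1r* beside *Tyr* and *Tyrp1*, pigment enzyme genes on which MITF is known to act. Each is the 300 bases from 250 before to 50 after the RefSeq start site in GRCm38.p6, printed 5′ to 3′ on the gene's strand. Capitals mark CATGTG, an E-box form bound by MITF, or its reverse complement CACATG.
*Mc1r*, chr8:123406832-123407131, plus strand: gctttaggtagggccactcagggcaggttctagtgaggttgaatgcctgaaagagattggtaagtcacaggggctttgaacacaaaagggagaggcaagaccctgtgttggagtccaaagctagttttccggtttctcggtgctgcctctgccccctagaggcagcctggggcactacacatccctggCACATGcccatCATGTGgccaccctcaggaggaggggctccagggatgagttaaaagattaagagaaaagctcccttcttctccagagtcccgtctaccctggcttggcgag
*Tyr*, chr7:87493463-87493762, minus strand: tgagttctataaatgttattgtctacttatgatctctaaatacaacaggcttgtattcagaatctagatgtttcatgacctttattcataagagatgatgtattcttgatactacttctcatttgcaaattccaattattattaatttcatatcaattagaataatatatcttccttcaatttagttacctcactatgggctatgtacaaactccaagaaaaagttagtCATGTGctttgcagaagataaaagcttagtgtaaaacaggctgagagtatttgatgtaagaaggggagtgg
*Tyrp1*, chr4:80833963-80834262, plus strand: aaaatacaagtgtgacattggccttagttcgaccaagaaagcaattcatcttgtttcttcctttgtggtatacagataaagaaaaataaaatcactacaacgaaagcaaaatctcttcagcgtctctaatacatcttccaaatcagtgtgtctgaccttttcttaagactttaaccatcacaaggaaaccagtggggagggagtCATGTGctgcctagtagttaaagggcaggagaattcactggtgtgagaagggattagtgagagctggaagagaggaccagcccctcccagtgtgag

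Both strands were searched. *Mc1r* held 2 matches, 62 and 51 bases before its start, *Tyr* and *Tyrp1* held 1 each, and the *Dct* promoter held 2. Of 32851 mouse promoters of this length, 14.15% held at least 1 match. The longer M-box TCATGTG, which contains CATGTG, was present in 3.77% of all promoters and occurred once in that of *Mc1r*. No match lay in the listed promoters of *Asip*, *Corin*, *Kitl* or *Ednrb*, in either promoter of *Kit*, or in any of the 3 of *Mitf*. *Sox10* had no entry. A match describes letters and not a bound site, and tags at the 3′ end of polyadenylated RNA do not tell the 3 start sites of *Mitf* apart.

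The number of UMIs behind each of the 8 members differed widely. *Asip*, listed under its older symbol *a* and matched by its Ensembl identifier, had 58 UMIs in all spots of all slices. *Mc1r* had 490, *Corin* 573 and *Sox10* 438, against 1053 for *Kit*, 2612 for *Kitl*, 3410 for *Mitf* and 4406 for *Ednrb*. Melanocyte-rich spots held 7.26% of all UMIs. They held 43.7% of the UMIs of *Mc1r*, 33.8% of *Sox10*, 27.2% of *Kit*, 26.95% of *Kitl*, 21.6% of *Corin*, 18.5% of *Ednrb*, 10.4% of *Mitf* and 3.45% of *Asip*. In GENCODE M21 annotation of GRCm38, the members lie at chr2:154791402-155051012 (*Asip*), chr8:123407107-123410744 (*Mc1r*), chr5:72300025-72504473 (*Corin*), chr5:75574916-75656722 (*Kit*), chr10:100015630-100100416 (*Kitl*), chr6:97807052-98021349 (*Mitf*), chr15:79154908-79165240 (*Sox10*) and chr14:103814625-103844402 (*Ednrb*). The map of slice 2 places these UMIs on the tissue.

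**Figure D1:**
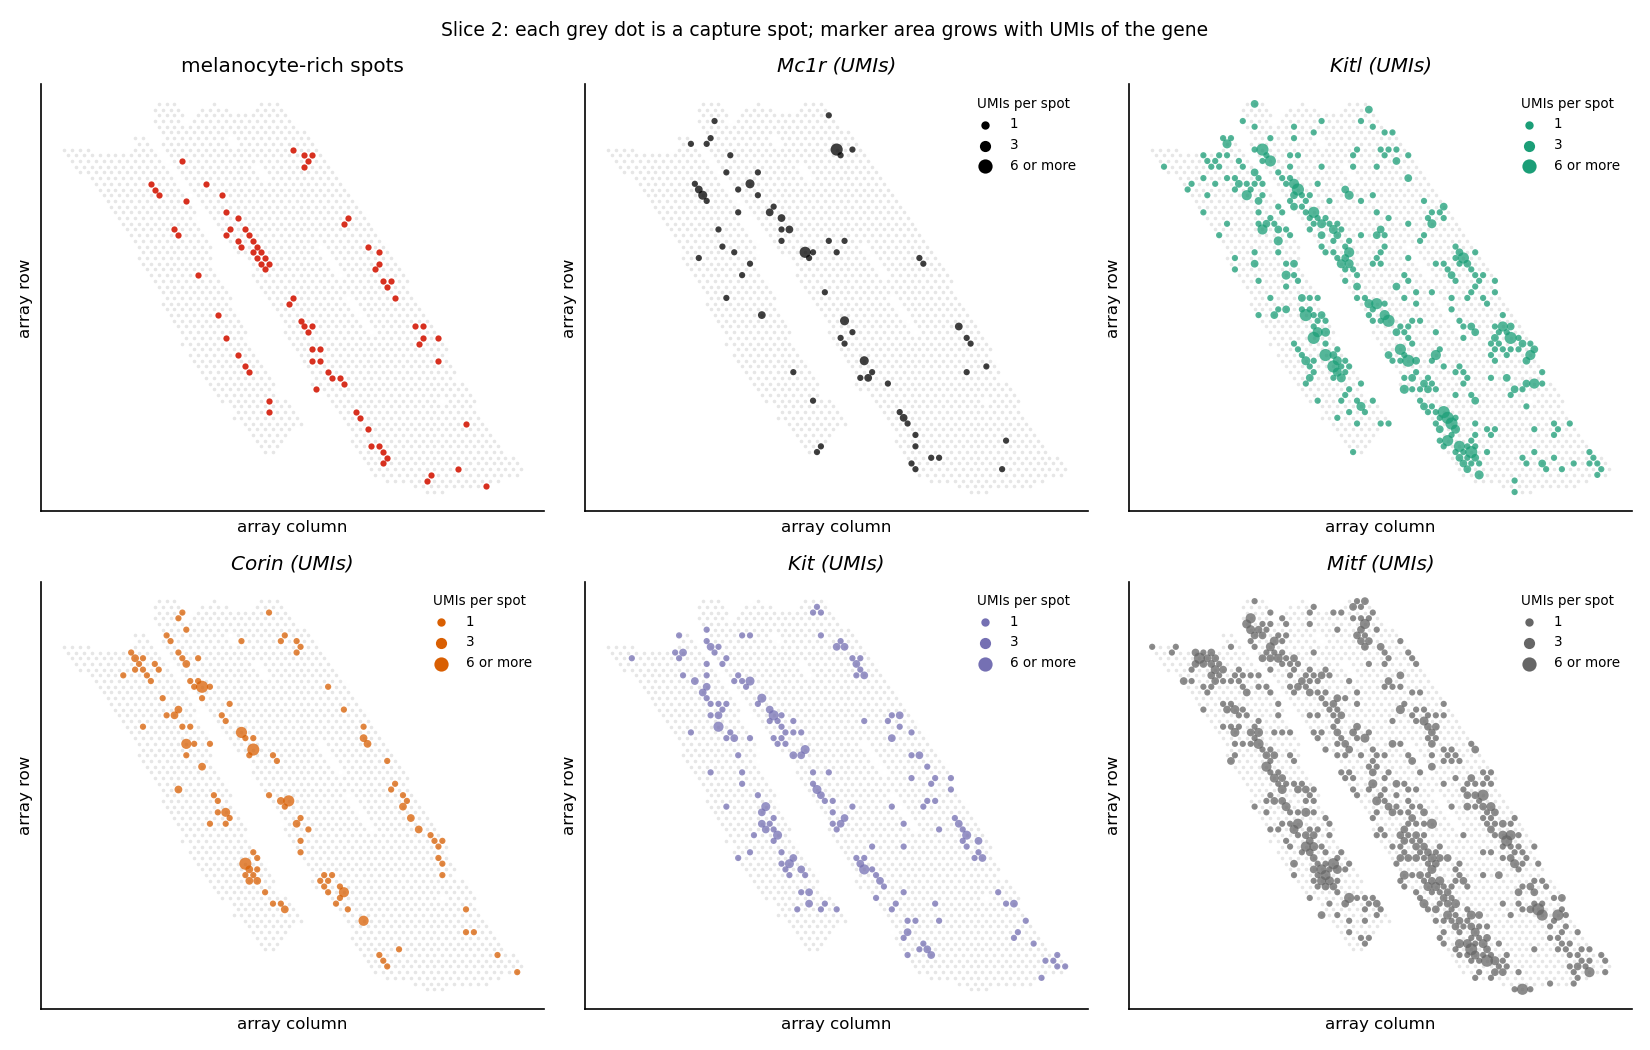
Positions on the capture grid of slice 2 (array column against array row), with melanocyte-rich spots in red in the first panel and spots with UMIs of *Mc1r*, *Kitl*, *Corin*, *Kit* or *Mitf* in the others, marker area growing with the UMI count and grey dots marking the 1751 spots. *Mc1r* had 96 UMIs, 53 of them in the 83 melanocyte-rich spots, whereas *Mitf* had 868 UMIs, 96 of them there.

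*Mc1r* and *Sox10* were the members most closely tied to melanocyte-rich spots. *Mc1r* stood at 29.9, 28.9, 34.0 and 37.4 CPM there in slices 1 to 4, and at 4.13, 2.97, 5.45 and 5.32 CPM at 1 step. All 4 melanocyte-rich values lay far above all 4 neighbor values, and the level was no higher farther away, at 2.48 ± 0.853 CPM in distant spots. The change was 2.81 ± 0.21 on the log2 scale against neighbors (SE, edgeR quasi-likelihood test, adjusted p = 5.44e-10) and 3.68 ± 0.23 against distant spots (edgeR, adjusted p = 5.07e-13).

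*Sox10* stood at 20.6, 18.0, 22.0 and 30.2 CPM in melanocyte-rich spots and at 2.60, 2.78, 3.77 and 3.77 CPM at 1 step. Here too the groups were far apart in each slice (log2 fold change 2.75 ± 0.23, edgeR adjusted p = 1.98e-09). Unlike *Mc1r*, it was no lower in distant spots, at 4.20 ± 0.852 CPM, than at 1 step, at 3.23 ± 0.627 CPM. Its second highest compartment was the spots led by Schwann cell markers, at 14.7 ± 3.58 CPM and 32 UMIs, followed by sebaceous gland-marker spots at 7.20 ± 2.09 CPM and 17 UMIs. Values in melanocyte-rich and Schwann-marker spots overlapped between slices, the highest Schwann-marker slice being at 18.7 CPM. The 6 Schwann cell markers summed to 30.96 to 53.3 CPM in melanocyte-rich slices, 34.6 to 72.6 at 1 step and 110.0 to 163 in distant spots. Of these markers 4 had a lower mean in melanocyte-rich spots than at 1 step and 2 a higher one, and their part in the *Sox10* result was not tested.

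*Kit* and *Kitl*, receptor and ligand, were both highest in melanocyte-rich spots. *Kit* was at 38.2, 31.1, 45.3 and 62.6 CPM there against 13.9, 16.3, 12.6 and 17.5 at 1 step. *Kitl* was at 86.7, 100.8, 110.0 and 133.9 CPM against 22.5, 28.4, 31.01 and 32.1. Neither gene overlapped between the 2 classes. *Kit* was higher by 1.47 ± 0.17 on the log2 scale (edgeR adjusted p = 5.41e-07) and *Kitl* by 1.86 ± 0.12 (edgeR adjusted p = 2.36e-11). *Kitl* UMIs were present in 225 of the 311 spots, *Kit* UMIs in 149, and both in 124. Mast cells also carry KIT. The 6 mast cell markers summed to 4.90 to 22.3 CPM in melanocyte-rich slices, 11.1 to 25.3 at 1 step and 34.2 to 39.2 in distant spots, with *Ms4a2* at 0 UMIs in melanocyte-rich spots, and the first 2 ranges overlapped. Without spots holding any mast marker UMI or at least 3 Schwann marker UMIs, the *Kit* change was 1.48 (edgeR adjusted p = 3.23e-06). That cut left out 1811 of 6411 spots, 52 of them melanocyte-rich.

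*Ednrb* stood at 129, 92.1, 141 and 131 CPM in melanocyte-rich spots. At 1 step it was at 36.1, 39.9, 53.7 and 47.0 CPM, and it remained at 47.6 ± 6.06 and 52.7 ± 9.95 CPM at 2 and 3 steps. The classes did not overlap, and the rise toward melanocytes (1.43 ± 0.14, edgeR adjusted p = 3.00e-08) stood on a level elsewhere that was well above 0. Endothelium-marker spots were at 70.3 ± 19.2 CPM, outer root sheath-marker spots at 66.6 ± 11.3, and hair shaft-marker spots at 58.5 ± 12.8, and these 3 did not differ beyond their spread.

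*Mitf* differed least between melanocyte-rich spots and the rest. It stood at 51.6, 52.3, 51.3 and 58.3 CPM in melanocyte-rich spots and at 36.5, 28.8, 36.5 and 39.9 CPM at 1 step. At 2 steps it was at 42.3, 42.7, 41.6 and 51.1 CPM, higher than at 1 step in each slice. The change against neighbors was 0.53 ± 0.10 (edgeR adjusted p = 0.000245) and against distant spots 0.88 ± 0.10 (edgeR adjusted p = 3.21e-08). Its highest level was not in melanocyte-rich spots at all but in hair shaft-marker spots, at 72.7, 73.9, 63.5 and 74.9 CPM, each above all 4 melanocyte-rich values. Inner root sheath-marker spots, at 52.4 ± 6.12 CPM, did not differ from melanocyte-rich spots beyond their spread, and matrix-marker spots were low, at 14.7 ± 2.37 CPM. In hair shaft-marker spots at 2 or more steps from melanocyte-rich spots, *Mitf* was at 73.7 ± 7.39 CPM, against 66.2 ± 4.46 CPM at 1 step, while *Mc1r* was at 1.80 ± 0.344 and 4.75 ± 2.28 CPM.

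*Corin* was raised in melanocyte-rich spots but was not highest there. It stood at 13.9, 20.7, 25.3 and 15.1 CPM, against 8.26, 13.4, 9.64 and 11.3 at 1 step, and was lower at each further step, down to 2.38 ± 0.603 CPM in distant spots. The lowest melanocyte-rich slice lay above the highest neighbor slice by a small margin (log2 fold change 0.76 ± 0.24, edgeR adjusted p = 0.0282). This call was lost without slice 1 (adjusted p = 0.0740) or slice 3 (adjusted p = 0.222, both edgeR), and with the 3 strips of tissue in place of slices (edgeR adjusted p = 0.123). The 10 dermal papilla markers summed to 100.1 to 157 CPM in melanocyte-rich slices, 80.6 to 103 at 1 step and 64.5 to 85.2 in distant spots. They did not all run the same way. *Wif1* was at 58.5 ± 17.4 CPM in melanocyte-rich spots and 45.1 ± 5.09 at 1 step, *Hhip* was level at 5.98 ± 1.34 and 5.71 ± 0.798, and *Prss12* was lower in melanocyte-rich spots, at 5.56 ± 3.69 against 10.5 ± 0.888 CPM, and highest in distant spots at 43.9 ± 4.30. Their part in the *Corin* result was not tested.

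Across these classes 7 of the 7 members tested were higher in melanocyte-rich spots than in neighbors, where 6.89% of 12980 genes were (18.7% called in either direction, 11.8% lower). Against distant spots 7 of 7 were higher, where 27.4% of genes were (58.3% in either direction, 30.9% lower). The median log2 change over the 7 was 1.47 against neighbors and 2.48 against distant spots, beside -0.02 and 0.0014 over all genes tested. *Asip* was too sparse for the filter on low counts and was not tested. It had 2 UMIs in melanocyte-rich spots, where 3 UMIs would be 0.450 CPM, and 16 at 1 step. Its levels by slice, 0 to 0.667 CPM and 0.371 to 1.26 CPM, overlapped.

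**Figure D2:**
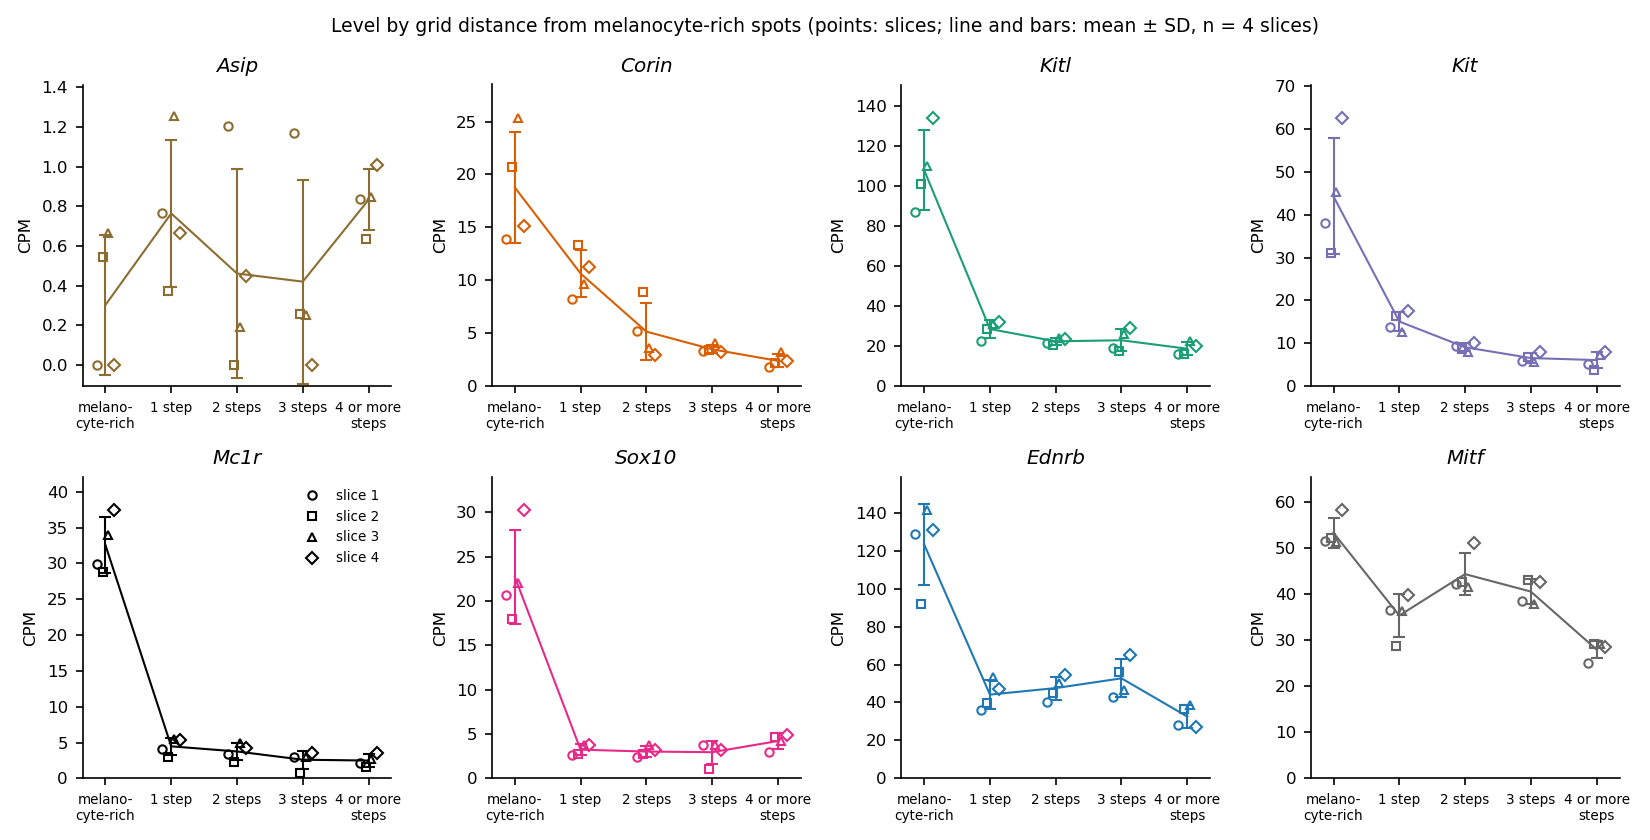
CPM of each member (y axis) by grid distance from melanocyte-rich spots (x axis), with 1 symbol per slice and lines and bars for the mean ± SD of 4 slices. *Mc1r* and *Sox10* fall to below 6 CPM within 1 step, *Corin* declines step by step from 18.8 to 2.38 CPM, and *Mitf* is at 35.4 CPM at 1 step and 44.4 CPM at 2 steps.

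Each member was also expressed per 100 UMIs of *Tyr*, *Mlana* and *Slc45a2*, melanocyte genes that did not choose the spots. *Tyrp1* gave 93.8 ± 7.68, 108 ± 10.01 and 107 ± 15.3 UMIs per 100 in melanocyte-rich, neighboring and distant spots. *Mc1r* gave 4.20 ± 0.297, 5.22 ± 1.49 and 6.95 ± 3.27, and the slices of these classes overlapped, although slice 4 reached 11.4 in distant spots. At 2 steps *Mc1r* gave 6.52 ± 2.14, and every slice there lay above every melanocyte-rich slice. The ratio of *Sox10* was 2.90 ± 0.380 in melanocyte-rich spots and 3.80 ± 0.923 at 1 step, then 5.94 ± 2.22 at 3 steps and 11.8 ± 3.98 in distant spots.

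The other members stood higher against the melanocyte genes from the first step on. *Kit* went from 5.62 ± 1.13 per 100 to 17.6 ± 2.97 at 1 step, and *Kitl* from 13.9 ± 2.11 to 33.6 ± 7.19. *Ednrb* went from 15.8 ± 1.70 to 52.0 ± 12.7 and *Mitf* from 6.92 ± 0.724 to 41.2 ± 5.17. *Corin* went from 2.47 ± 0.842 to 12.6 ± 3.38 and was lower again, at 6.61 ± 2.11, in distant spots. In each of these 5 genes, every neighbor slice lay above every melanocyte-rich slice. The denominator itself fell steeply over this step, *Mlana* going from 600.2 to 61.0 CPM. The share of all genes separated in this way was not computed, so the separation is not read as a trait of these members. These ratios share a denominator and are given as a description without a test.

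**Figure D3:**
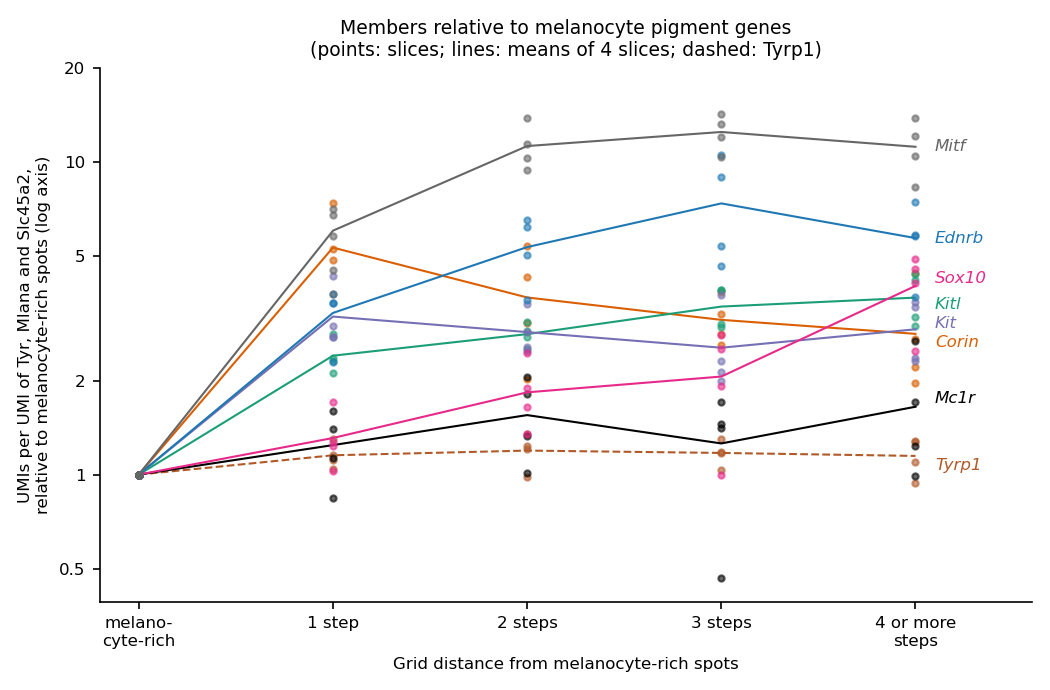
UMIs per UMI of *Tyr*, *Mlana* and *Slc45a2*, relative to melanocyte-rich spots of the same slice (log axis), by grid distance, with points for slices and lines for means of 4 slices. Of the 7 members drawn, *Mc1r* has the mean line nearest to the dashed line of *Tyrp1* at each distance and lies above it, *Sox10* leaves it beyond 1 step, and *Mitf*, *Corin*, *Ednrb*, *Kit* and *Kitl* leave it at 1 step.

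The members were also followed along the melanocyte signal itself. Spots were ranked within each slice by summed *Tyrp1*, *Dct* and *Pmel* CPM. From percentiles 0 to 50 to percentiles 98 to 100 (131 spots), *Mc1r* went from 2.21 ± 1.05 to 53.7 ± 10.7 CPM and *Sox10* from 3.24 ± 0.265 to 35.7 ± 7.60. *Kit* went from 7.13 ± 0.788 to 69.9 ± 24.3 CPM, *Kitl* from 16.6 ± 1.10 to 160 ± 24.7, *Ednrb* from 41.4 ± 5.51 to 185 ± 44.0 and *Corin* from 4.13 ± 0.688 to 24.8 ± 6.58. *Mitf* showed no such slope until the end of the range. It was at 37.96 ± 3.55, 35.9 ± 1.38, 31.9 ± 3.48, 34.6 ± 3.03 and 37.9 ± 6.85 CPM in the first 5 bins and 71.5 ± 8.35 CPM in the last. *Egr2*, whose promoter drives the Cre, went the other way, from 41.3 ± 5.42 to 18.7 ± 11.7 CPM.

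Melanocytes and dermal papilla lie within a few spots of each other, so the 2 signals were next separated near melanocytes. The 1425 melanocyte-rich spots and their neighbors were split at the slice medians of melanocyte signal and of the score of 10 dermal papilla markers, none of them a member, into 368 spots high in both, 344 high in melanocyte signal alone, 344 high in dermal papilla signal alone and 369 low in both. Of the 1114 neighbors, 258 were led by inner root sheath markers, 234 by hair shaft, 217 by matrix, 154 by skeletal muscle, 68 by adipocyte and 47 by dermal papilla markers, so the set is wider than the hair bulb. With both signals in 1 model, 5 of 7 members rose with the melanocyte signal, where 4.01% of 10463 genes did (10.2% called in either direction, 6.23% lower). With the dermal papilla signal 2 of 7 rose, where 4.80% of genes did (12.4% in either direction, 7.63% lower). The member medians were 0.95 and 0.33 on the log2 scale, beside 0.0046 and 0.02 over all genes. *Mc1r* and *Sox10* passed the low-count filter through the classes with high melanocyte signal. In slices with low signal *Mc1r* was at most 4.16 CPM. *Corin* passed that filter through the classes with high dermal papilla signal. Calls of these genes are not independent of the filter, and the counts of members are descriptions.

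*Corin* went with the dermal papilla signal. It stood at 20.5 ± 3.93 CPM in spots high in both and 17.4 ± 3.72 in those high in dermal papilla signal alone, but at 6.08 ± 1.20 and 3.18 ± 1.36 CPM where that signal was low. The values with high and low dermal papilla signal did not overlap (log2 fold change 1.98 ± 0.19, edgeR adjusted p = 4.50e-07). The effect of melanocyte signal was 0.33 ± 0.18 (edgeR adjusted p = 0.289) and was not called.

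*Mc1r*, *Sox10*, *Kitl* and *Ednrb* went with the melanocyte signal. *Mc1r* was at 21.7 ± 4.18 and 15.98 ± 1.17 CPM where it was high and at 2.77 ± 1.37 and 2.50 ± 0.990 where it was low (2.81 ± 0.19, edgeR adjusted p = 1.64e-10). *Sox10* rose by 2.24 ± 0.24 (edgeR adjusted p = 5.92e-07) and *Ednrb* by 0.94 ± 0.12 (edgeR adjusted p = 1.23e-05). *Kitl*, although a niche ligand by its known role, was at 79.1 ± 18.7 and 65.6 ± 11.9 CPM with high melanocyte signal and at 24.03 ± 4.01 and 15.6 ± 3.85 CPM with low (1.81 ± 0.12, edgeR adjusted p = 1.25e-10). Its dermal papilla effect was 0.33 ± 0.12 and just missed the threshold (edgeR adjusted p = 0.0697), and with the slice as a block it was 0.31 and passed (edgeR adjusted p = 0.0384).

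*Kit* was called for both signals. It was at 36.0 ± 9.20 CPM in spots high in both signals, 20.8 ± 7.01 with melanocyte signal alone, 17.2 ± 2.68 with dermal papilla signal alone and 10.5 ± 3.86 with neither. Both effects passed the test, at 0.95 ± 0.15 for melanocyte signal (edgeR adjusted p = 0.000162) and 0.70 ± 0.16 for dermal papilla signal (edgeR adjusted p = 0.00368). The second was 0.52 and lost its call when spots were thinned to 5000 UMIs (edgeR adjusted p = 0.462). *Mitf* was called for neither signal, at 0.20 ± 0.11 (edgeR adjusted p = 0.308) and -0.29 ± 0.11 (edgeR adjusted p = 0.0988), but without slice 4 the second was -0.41 and called (edgeR adjusted p = 0.0369). *Asip* had 6 and 11 UMIs in the classes with high dermal papilla signal and 1 and 0 in those with low, which did not pass the filter on low counts.

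**Figure D4:**
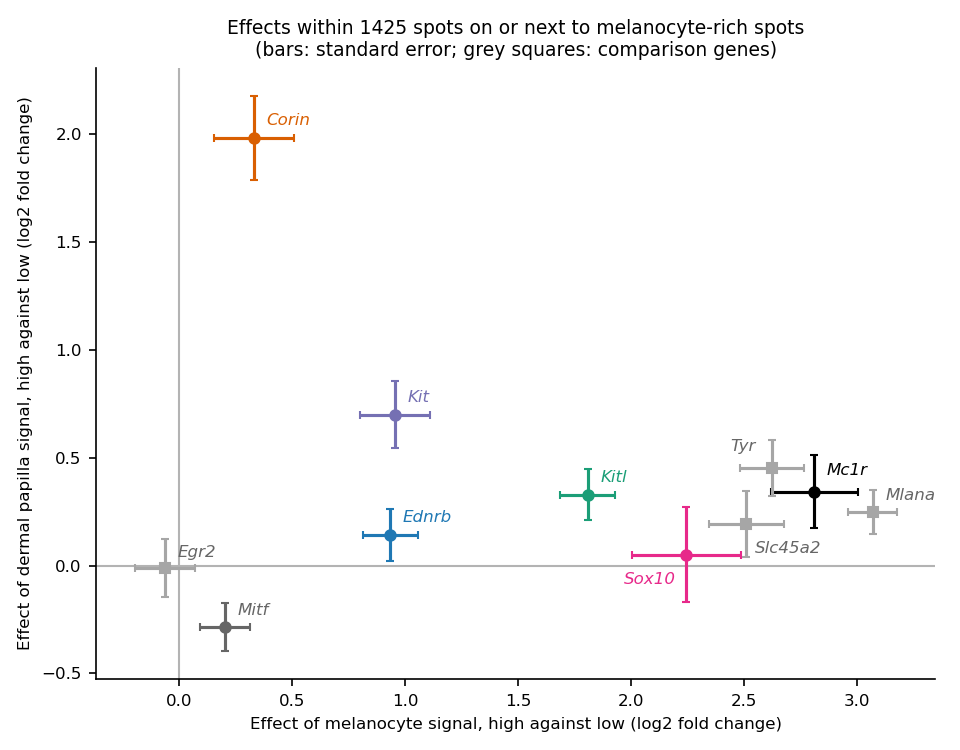
Log2 fold change with melanocyte signal (x axis) and with dermal papilla signal (y axis) within the 1425 melanocyte-rich and neighboring spots, with bars for the standard error, circles for the 7 members tested and grey squares for *Tyr*, *Mlana*, *Slc45a2* and *Egr2*. *Mc1r* lies among the melanocyte genes at 2.81 and 0.34, *Corin* lies apart at 0.33 and 1.98, *Kit* lies between at 0.95 and 0.70, and *Mitf* lies near the origin.

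All spots outside the melanocyte-rich class were also grouped by the marker list with the highest score, and the names below mean spots led by those markers, not pure cell types. The 97 dermal papilla-marker spots held the highest *Corin* level, at 19.3, 40.9, 39.7 and 39.5 CPM, with 69 UMIs. Against the mean of all other compartments, *Corin* was higher by 3.36 ± 0.27 (edgeR adjusted p = 3.32e-17) and *Kit* by 2.04 ± 0.31 (edgeR adjusted p = 9.11e-08), 2 of 7 members where 20.5% of 11121 genes rose. *Mitf* was lower by -0.83 ± 0.25 (edgeR adjusted p = 0.00531) and *Sox10* by -1.96 ± 0.73 on 2 UMIs (edgeR adjusted p = 0.0268), where 20.2% of genes fell and 40.6% were called in either direction. The *Mitf* call was lost without slice 2 (edgeR adjusted p = 0.0517), and that of *Sox10* without slice 1, 2 or 4 (edgeR adjusted p = 0.0734, 0.145 and 0.0561). *Sox10* averaged above 7.2 CPM only in melanocyte-rich and Schwann-marker spots, which are part of the mean it was set against. Its call here is therefore not independent of the low-count filter. The other 3 members were not called. After thinning to 5000 UMIs per spot, *Corin*, *Mc1r* and *Sox10* no longer passed the filter on low counts and the 4 members left were not called. The *Kit* level in these spots varied widely, at 16.1, 12.4, 52.2 and 32.0 CPM, and after thinning, with spots grouped anew, it did not differ beyond error (log2 fold change -0.05, edgeR adjusted p = 0.992).

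Within matrix-marker spots, *Kit* and *Kitl* did not differ by distance beyond their spread between slices. There *Kit* was at 24.1 ± 6.20 CPM at 1 step and 24.97 ± 9.25 CPM at 2 or more, and *Kitl* at 32.1 ± 8.54 and 31.7 ± 8.80 CPM. Against matrix-marker spots as a whole, 6 of 7 members were higher in melanocyte-rich spots, where 12.9% of 11121 genes were (28.1% called in either direction, 15.2% lower). These were *Sox10* by 3.41 ± 0.30, *Mc1r* by 3.15 ± 0.29, *Ednrb* by 1.94 ± 0.15, *Mitf* by 1.79 ± 0.17, *Kitl* by 1.66 ± 0.15 and *Kit* by 0.77 ± 0.20. *Kit* was higher in melanocyte-rich spots in each slice, but the slices overlapped, at 31.1 to 62.6 CPM there and 18.2 to 34.5 CPM in matrix-marker spots. Its change was 0.38 to 1.35 under the alternatives. *Corin* was higher by 0.49 ± 0.23, which was not called (edgeR adjusted p = 0.109). *Mc1r* passed the low-count filter only through melanocyte-rich spots, being at most 9.57 CPM in any slice of another compartment. *Sox10* averaged above 7.20 CPM only there and in Schwann-marker spots. Their calls are therefore not independent of the filter, and the count of members is a description.

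The *Asip* UMIs, though few, were placed unevenly. Dermal papilla-marker spots held 8, giving 6.44, 3.56, 8.35 and 0 CPM by slice, the highest mean of any compartment. All 8 lay in the 47 such spots at 1 step from melanocyte-rich spots and none in the 50 farther away. When each slice was cut into its 3 strips of tissue, numbered by position, a split added after the data were seen, 14 of the 16 UMIs at 1 step lay in the third strip, as did 7 of the 8 in dermal papilla-marker spots. That strip had 4, 2, 5 and 3 such UMIs at 1 step in slices 1 to 4. The other 2 strips had 1 each over all slices. *Corin*, also highest in these spots, was at 34.9, 47.3 and 30.8 CPM in the dermal papilla-marker spots of strips 1, 2 and 3. Each strip should hold 1 section, but the labels do not tie strips to mice, and *Asip* overlaps *Raly* on the same strand (99 to 125 CPM by distance class), so reads of the 2 may be split by the authors' counting.

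**Figure D5:**
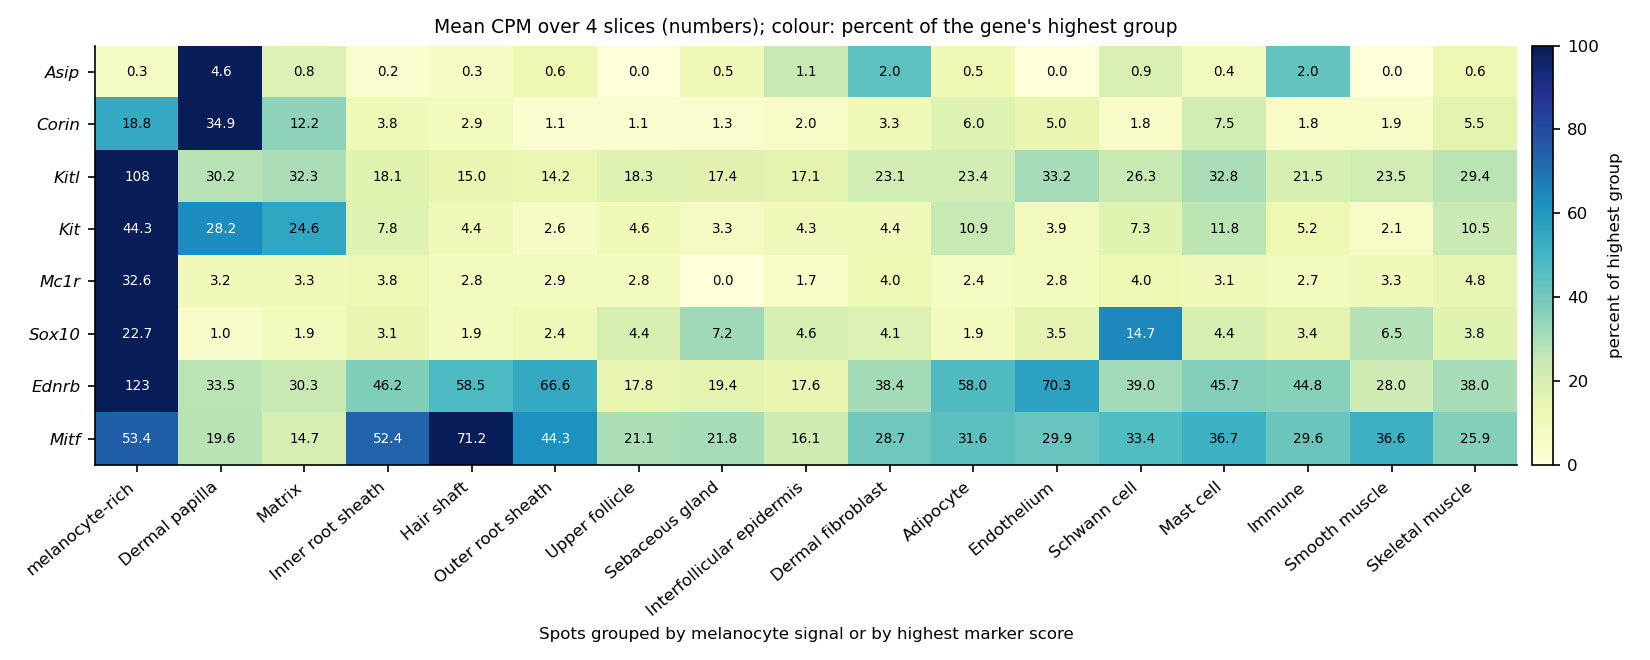
Mean CPM over 4 slices (numbers) of each member (rows) in melanocyte-rich spots and in spots grouped by their leading marker list (columns), colored by the percent of the gene's own highest column. *Kitl*, *Kit*, *Mc1r*, *Sox10* and *Ednrb* are highest in melanocyte-rich spots, *Asip* and *Corin* in dermal papilla-marker spots, and *Mitf* in hair shaft-marker spots at 71.3 CPM.

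The strips also gave a view of how the members varied across tissue. In melanocyte-rich spots of strips 1, 2 and 3, *Ednrb* was at 123, 121 and 124 CPM and *Sox10* at 25.9, 18.4 and 26.9. *Mc1r* was at 34.9, 33.7 and 24.8 CPM, *Kitl* at 115, 115 and 70.1, *Kit* at 36.6, 39.2 and 60.2, and *Mitf* at 37.7, 58.2 and 60.2. *Corin* was at 18.0, 22.7 and 9.21 CPM on 32, 79 and 13 UMIs, against 7.89, 10.98 and 12.7 at 1 step. The third strip was thus lowest in *Mc1r*, *Kitl* and *Corin*. It was highest in *Kit* and, by small margins, in *Mitf*, *Sox10* and *Ednrb*. It was also the strip in which *Corin* was lower in melanocyte-rich spots than at 1 step. With strips as units, *Corin* lost its call against neighbors, and the other members tested stayed higher in melanocyte-rich spots. The share of all genes called in that fit is not given here, so no count of members is read from it.

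Genes of the surrounding pathways were read from fixed lists in the comparison of melanocyte-rich spots with neighbors, where 6.89% of all genes were higher and 11.8% lower. Of 17 genes on the melanosome list not used to choose spots, 16 rose, with a list median of 2.63 on the log2 scale. Among them were *Trpm1* (2.91 ± 0.11), the melanosomal exchanger *Slc24a5* (3.04 ± 0.14) and *Oca2* (2.77 ± 0.17). The list also holds genes of other roles, such as *Met* and *Cited1*. Of 11 melanocyte transcription factors or partners tested, 4 rose, namely *Pax3* (3.19 ± 0.36), which acts with SOX10 on *Mitf*, *Irf4* (1.70 ± 0.33), *Tfeb* (1.78 ± 0.17) and *Lef1* (0.93 ± 0.12). *Pax3* and the melanosome-list gene *Cited1* passed the low-count filter only through melanocyte-rich spots. In slices of the other classes they were at most 1.67 and 1.51 CPM. None of 13 KIT signaling genes tested was called, with a list median of -0.07. At an unadjusted p under 0.05 in edgeR, 3 of them were lower (*Lyn*, *Ptpn11* and *Shc1*) and 0 higher, and DESeq2 called 0.

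Of the endothelin pathway list, *Edn3* and *Ece2* were not tested. Of the 4 genes tested, *Edn1* (-0.97 ± 0.21) and *Edn2* (-1.04 ± 0.29), ligands of EDNRB, and *Ece1* (-0.82 ± 0.09), which processes them, fell. Against matrix-marker spots, where *Ednrb* was higher too, they were not called, at 0.44 ± 0.26, 0.29 ± 0.40 and -0.07 ± 0.13 (edgeR adjusted p = 0.212, 0.653 and 0.730). *Edn1* was at 11.7 ± 5.17 CPM in melanocyte-rich spots, 21.9 ± 4.62 at 1 step and 29.6 ± 3.75 at 3 steps, and the mean of *Ednrb* was also higher at 3 steps than at 1. Against neighbors again, of 9 melanocortin pathway genes tested, *Mc5r* (-0.98 ± 0.34) and the prohormone convertase *Pcsk2* (-1.42 ± 0.40) fell. Another 5 genes of that list, *Pomc* among them, were not tested. *Pcsk2* was highest at 1 step, at 3.46 ± 0.95 CPM, and at most 2.70 CPM in any slice of another distance class. Its call is therefore not independent of the low-count filter. *Atrn* and *Mgrn1*, both needed for agouti signaling, were not called at 0.08 ± 0.13 and -0.10 ± 0.12. Of 13 niche signals tested, *Dkk3* (1.42 ± 0.15) and the Notch ligand *Jag1* (0.37 ± 0.09) rose. Beside these lists, 6.89% of all genes were higher against neighbors and 11.8% lower. The short lists were not tested against those shares.

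The gene most like each member was read from the correlation of log levels over the 17 compartments among 10480 genes, which is a description over compartments that share libraries. Compartments were set by marker levels, the melanocyte-rich one by *Tyrp1*, *Dct* and *Pmel*, so likeness to genes of that choice is not given. *Mc1r* was most like *Tyr* (Pearson r = 0.949) and *Kitl* most like *Mylip* (0.942). *Corin* was most like *Wif1* (0.960), but *Wif1* is one of the markers that set the dermal papilla compartment. *Kit* had *Tagap1* (0.944), *Mitf* had *Mapre3* (0.946) and then *Bmp2* (0.925), and *Ednrb* had *Basp1* (0.908). *Sox10* had lower values, led by *Clcn7* (0.811). Between members the highest values were *Kit* with *Corin* (0.903) and *Mc1r* with *Kitl* (0.860), whereas *Mitf* with *Kit* gave -0.08.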

How the data were processed

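Visium counts of 4 slices were analysed, each from 1 capture area. The deposited values are UMI counts per gene and spot, which per the labels the authors made with Space Ranger 2.0.1 on mm10; the annotation release is not given in the sources used here. The members and gene lists were chosen with earlier results of these data known. Spots with under 250 genes (9 of 6420) were dropped. Counts were summed by slice and spot class, scaled by TMM, filtered by filterByExpr and tested with edgeR 4.0.16 (quasi-likelihood, Benjamini-Hochberg over all genes, threshold 0.05), with all classes of a partition in 1 fit. DESeq2 1.42.0, other filters, scaling and spot definitions, thinning to 5000 UMIs, a slice block, each slice left out and 3 strips as units were alternatives. Slices hold sections of the same mice, so their numbers pair the sums: same-slice deviations correlated by 0.0985 to 0.296 on average over distance classes and 0.048 to 0.150 over compartments, with a lowest pair of -0.0114. Compartments were set by the highest mean z score of at least 0.5 over 16 marker lists, and 164 of 6100 spots had a top score within 0.1 of that. A spot was not treated for doublets, since it is no single cell. Named genes were the 8 members, the pathway lists and the genes most like each member. The edgeR fits were tested on simulated class sums, and the choice of spots was not. The floor of a count of 0 was taken as 3 UMIs, and SDs cover slices only.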

Additional observations from a re-analysis of the deposited data

Results flagged for a closer look

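Of 72 groups of 4 slices examined (8 members by class), 5 held a slice far from the other three by Dixon's criterion at its 95% level, which chance meets in about 1 group in 20. *Corin* in dermal papilla-marker spots was at 19.3 CPM in slice 1, with the others at 39.5 to 40.9 CPM. *Mitf* was at 58.3 CPM in melanocyte-rich spots of slice 4 and at 51.1 CPM in spots at 2 steps of the same slice, above the other slices in both, and at 25.2 CPM in distant spots of slice 1, below the others. *Asip* in Schwann-marker spots was at 3.46 CPM in slice 4, which is 2 UMIs, and at 0 in the other slices.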

How the results depend on the processing

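Among the log2 fold changes recomputed for members under alternatives, 620 kept their direction and side of the threshold, 18 lost the call, 9 gained one and 11 changed sign. None of those 11 was called under the alternative, and among results called in the report only *Kit* in dermal papilla-marker spots changed sign (thinned, -0.053). The other changes of sign in that comparison were *Kitl* (-0.031 with melanocyte-rich spots at the 90th percentile, -0.10 thinned, -0.21 to 0.53 leaving out slices), *Mc1r* (-0.60 at the 90th percentile, -0.18 to 0.34 leaving out slices) and *Ednrb* (0.022 with spots chosen by *Tyr*, *Mlana* and *Slc45a2*, 0.17 thinned). For the dermal papilla signal among melanocyte-rich spots and their neighbors they were *Ednrb* (-0.10 thinned) and *Sox10* (-0.034 to 0.21 leaving out slices). Thinning left fewer UMIs and genes: genes called were 617 in place of 2432 against neighbors, 3895 in place of 7562 against distant spots, 824 in place of 3127 against matrix-marker spots, 740 in place of 4518 for dermal papilla-marker spots, and 332 in place of 1072 and 295 in place of 1300 for melanocyte and dermal papilla signal, with 3, 0, 3 and 0 members called, of 4 tested, in the last 4 of these comparisons. With at least 50 UMIs per sum, members called were 2 for dermal papilla-marker spots (5 tested), and 3 and 1 (4 tested) for melanocyte and dermal papilla signal; without a filter, 4 were called for dermal papilla signal, the added ones being *Kitl* and *Asip*. Leaving out 1 slice gave 688 to 897 genes for melanocyte signal (lowest without slices 3 and 4), 572 to 1120 for dermal papilla signal (lowest without slices 2 and 3), and 2 to 4 members for dermal papilla-marker spots, 2 without slice 2, where *Mitf* (edgeR adjusted p = 0.0517) and *Sox10* (0.145) were lost. With the slice as a replicate block, the *Kitl* dermal papilla effect of 0.31 was called and no other member's call or count changed side or moved by over 1.5 times. The *Corin* call against neighbors was lost in 7 of 15 alternatives, with values of 0.33 to 0.89. The causes were not tested. Shares of all genes called in the alternative fits are not given here, so the member counts under alternatives are not set against a background. *Asip*, at 58 UMIs, passed the filter on low counts in none of the comparisons of the report; without a filter it was called, higher, for dermal papilla-marker spots and dermal papilla signal, and in no other comparison.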

Other observations

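Within the 311 melanocyte-rich spots, 39 had UMIs of all of *Mc1r*, *Kit*, *Mitf*, *Sox10* and *Ednrb*, and 13 had none of the 8 members. After each spot was thinned to 5000 UMIs, which left out 10 of these spots, *Mc1r* was detected in 10.6% ± 2.82 of them (37.8% ± 2.50 unthinned), against 2.43% ± 1.06 at 1 step (7.84% ± 1.77) and 1.28% ± 0.780 in distant spots (2.63% ± 0.7998). *Mitf* was detected in 27.7% ± 6.03 of melanocyte-rich spots (59.3% ± 5.19 unthinned), 17.3% ± 1.28 of neighbors (43.2% ± 4.03) and 12.6% ± 2.02 of distant spots (23.8% ± 1.48), all SD over 4 slices. In skeletal muscle-marker spots, which should lack *Mc1r*, its share was 1.99% ± 0.669 thinned (7.18% ± 2.08 unthinned, median 14469 UMIs against 20447 in melanocyte-rich spots), but 154 of these 915 spots lay at 1 step and 384 at 2 steps from melanocyte-rich spots, so no background was set from it.

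In dermal papilla-marker spots, 6 of 10 niche signals tested were higher than in the mean of other compartments, among them *Shh* (log2 fold change 1.54 ± 0.45), *Wnt10b* (1.55 ± 0.42) and *Dkk2* (1.73 ± 0.30), and *Dkk3* was lower (-1.27 ± 0.28), beside 20.5% and 20.2% of all genes. *Dkk3* was thus called lower here and higher in melanocyte-rich spots than in their neighbors. The niche list shares *Fgf10* with the markers that set the dermal papilla-marker spots. Sparse genes such as *Shh*, at most 8.41 CPM on average in any distance class, pass the low-count filter only through compartments where they are high. The count of niche signals is therefore a description and no independent support.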
